A study of Mus musculus with 6 samples.

Results

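The carbonic anhydrase genes of embryonic mouse hearts are described here as 7 members, *Car2*, *Car3*, *Car4*, *Car8*, *Car9*, *Car12* and *Car14*, found by symbol among the 54532 genes of the raw count table. All 7 passed the filter on low counts and were tested. RNA of E9.5 hearts was sequenced, with 3 WT and 3 *Smyd1-KO* samples by their labels. Each sample is taken as 1 heart from a separate embryo below. *Smyd1* encodes a muscle-restricted histone methyltransferase. The mutant allele comes from a conventional *Smyd1*+/− line, so the mutation was carried by every cell and not by 1 cell type alone. SMYD1 protein was not analysed here. Neither genotype carried another allele or a treatment.

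Carbonic anhydrases are zinc enzymes that interconvert carbon dioxide and water with bicarbonate and a proton. Cytosolic isoforms act inside the cell, whereas membrane-bound isoforms carry their catalytic domain on the outer face, where they help carry acid away from cells that produce it. Protons and bicarbonate cross the membrane through separate proteins, among them sodium-proton exchangers, bicarbonate transporters of the SLC4 family and proton-coupled lactate carriers. *Car9* is known as a target of the hypoxia-inducible factors, and *Car2* is abundant in red blood cells.

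Total counts per heart ran from 48627825 to 64217529, with the lowest total in *Smyd1-KO* heart 1. Counts of *Smyd1* scaled to library size (CPM) were 101, 222 and 206 in *Smyd1-KO* hearts 1 to 3 and 414, 379 and 270 in WT hearts 1 to 3. The targeted gene was thus lower in every *Smyd1-KO* heart, with a log2 fold change of -1.01 (SE 0.30) that did not pass the edgeR test (adjusted *P*=0.0973) and passed in DESeq2 (adjusted *P*=0.00534). Counts are per gene, so reads from the mutated and the intact part of *Smyd1* cannot be told apart. The summed level of 14 cardiomyocyte markers was 9817 to 20596 CPM in *Smyd1-KO* and 12853 to 21811 CPM in WT hearts, so heart muscle genes were abundant throughout, and *Smyd1-KO* heart 1 had the lowest sum. A log2 fold change is always *Smyd1-KO* minus WT below. A gene was called upregulated or downregulated where edgeR's quasi-likelihood test gave an adjusted *P* under 0.05 and the log2 fold change was 0.5 or more in size. These hearts are whole organs, so fewer cells of a type and less RNA per cell cannot be told apart.

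Promoter sequence of 3 members is shown because *Car9* is a textbook hypoxia target, and the core letters ACGTG of the hypoxia response element can be looked for in the window from 250 bases before to 50 bases after the transcription start. The windows are from RefSeq on GRCm38.p6, written 5′ to 3′ on the strand of the gene, and capitals mark ACGTG where it lies on the opposite strand and so reads CACGT. *Car9* rose most, *Car12* was also higher in every *Smyd1-KO* heart, and *Car4* overlapped between genotypes.
Car9, chr4:43506776-43507075, plus strand: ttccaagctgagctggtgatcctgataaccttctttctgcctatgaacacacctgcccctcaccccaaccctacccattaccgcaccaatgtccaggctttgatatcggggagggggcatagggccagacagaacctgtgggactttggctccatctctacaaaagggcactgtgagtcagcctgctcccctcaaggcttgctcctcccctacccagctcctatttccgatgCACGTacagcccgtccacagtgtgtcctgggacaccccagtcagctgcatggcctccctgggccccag
Car12, chr9:66713436-66713735, plus strand: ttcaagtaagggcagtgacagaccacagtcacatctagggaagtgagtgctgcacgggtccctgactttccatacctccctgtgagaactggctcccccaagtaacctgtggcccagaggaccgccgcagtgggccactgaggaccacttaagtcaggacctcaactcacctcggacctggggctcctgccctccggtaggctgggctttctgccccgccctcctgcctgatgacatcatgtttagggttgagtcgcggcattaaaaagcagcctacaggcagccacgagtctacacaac
Car4, chr11:84957504-84957803, plus strand: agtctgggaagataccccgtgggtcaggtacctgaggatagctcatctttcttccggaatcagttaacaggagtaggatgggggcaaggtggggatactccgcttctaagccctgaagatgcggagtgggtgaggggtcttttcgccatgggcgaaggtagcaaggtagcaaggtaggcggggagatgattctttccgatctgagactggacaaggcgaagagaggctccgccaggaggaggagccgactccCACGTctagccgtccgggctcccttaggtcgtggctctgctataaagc

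The match in the *Car9* window spans bases -18 to -14 from the start, and that in the *Car4* window bases 3 to 7. The *Car12* window holds no match on either strand. The *Car14* window has 1 match, at bases -7 to -3. ACGTG occurs on either strand in 19.6% of 32851 windows of the same length, and the variant GCGTG, present in none of these 4 windows, in 32.4%. RefSeq windows were found for 4 of the 7 members. A match is a description of the letters and not a bound site.

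*Car9* and *Car3* changed in opposite directions. *Car9*, a membrane-bound enzyme, rose 5.13-fold in *Smyd1-KO* hearts, and *Car3*, a cytosolic enzyme of low activity that is abundant in muscle and fat, fell 2.84-fold. Of the 7 members, 1 was upregulated, 1 was downregulated and 5 passed in neither direction, against 2.86% and 1.42% of the 19372 tested genes up and down (4.28% called in all). The median log2 fold change of the members was 0.26, with 5 values above 0 and 2 below, whereas the median over all tested genes was close to 0 (-0.0026).

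*Car9* (ENSMUSG00000028463, GRCm38 chromosome 4, 43506966 to 43513729, plus strand) had 7.82, 15.0 and 16.2 CPM in *Smyd1-KO* hearts 1 to 3 and 1.83, 3.56 and 2.22 CPM in WT hearts 1 to 3. Each *Smyd1-KO* heart was above every WT heart, and *Smyd1-KO* heart 1 was the lowest of its genotype. The means were 13.01 ± 4.54 and 2.54 ± 0.907 CPM (SD, n=3 each). The log2 fold change was 2.36 (SE 0.36, 95% interval 1.52 to 3.20, adjusted *P*=0.0173 in edgeR). With the replicate number as a block it was 2.34 with an adjusted *P* of 0.0561, and in the 6 fits that leave out 1 heart the adjusted *P* ran from 0.00479 to 0.0846, with a call in the fits without *Smyd1-KO* heart 1 and without *Smyd1-KO* heart 3. The log2 fold change in those 6 fits stayed between 2.17 and 2.68. Exons of *Car9* share 214 bases (9.29%) with the antisense gene *Gm12454*, and no strand setting is stated for the counting, so reads there cannot be assigned. *Gm12454* itself had 0.329 to 1.62 CPM in *Smyd1-KO* hearts against 0.360 to 0.882 CPM in WT hearts.

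The summed markers of some other cell types were also higher in *Smyd1-KO* hearts. Of all lists summed, only the epicardial and notochord sums lay above WT without overlap. Mean sums of cushion and neural crest, skeletal muscle, foregut, endothelial and macrophage markers were also higher. Their log2 ratios were 0.62, 0.51, 0.20, 0.17 and 0.05, and the genotypes overlapped in each. The 9 macrophage markers were near the floor, summing to 1.35 to 1.75 CPM in *Smyd1-KO* and 1.01 to 1.93 CPM in WT hearts. Of these 9, 3 passed the filter and were tested, as were 4 of the 9 skeletal muscle markers. The 9 epicardial and proepicardial markers summed to 288 to 493 CPM in *Smyd1-KO* and 179 to 220 CPM in WT hearts, with 8 of 9 higher (exact permutation *P*=0.1, two-sided, the smallest that 3 against 3 hearts can give). The 6 notochord markers summed to 382 to 751 CPM against 279 to 350 CPM (exact permutation *P*=0.1), with 5 of the 5 tested genes higher. Of single genes, 1 epicardial and 0 notochord markers were called in edgeR, and 3 and 1 in DESeq2. An unadjusted *P* under 0.05 in edgeR was found for 3 and 1, against 25.1% of all tested genes. Above WT in every *Smyd1-KO* heart were 2 and 1, as were 15.9% of all tested genes. None of the genes of either list was at 0 in every heart. Their part in the rise of *Car9* was not tested.

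*Car12*, the other membrane-bound enzyme with a transmembrane segment among the low-abundance members, lies on chromosome 9 (ENSMUSG00000032373, 66713686 to 66766845, plus strand). It had 25.4, 13.7 and 10.6 CPM in *Smyd1-KO* hearts 1 to 3 and 7.10, 6.66 and 9.19 CPM in WT hearts 1 to 3. The genotypes did not overlap, but *Smyd1-KO* heart 3 was close to WT heart 3. The log2 fold change was 1.11 (SE 0.33, 95% interval 0.35 to 1.88) and was not called in edgeR (adjusted *P*=0.0921), whereas DESeq2 called it (adjusted *P*=0.00406). Without *Smyd1-KO* heart 1, the highest, the log2 fold change was 0.67 (adjusted *P*=0.0874 in edgeR). Among *Smyd1-KO* hearts, heart 1 was thus highest for *Car12* and lowest for *Car9*.

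*Car4* and *Car14* were the most abundant members and did not pass the test. *Car4*, anchored to the outer membrane by a lipid tail, lies on chromosome 11 (ENSMUSG00000000805, 84957786 to 84966044, plus strand). It had 63.4, 47.9 and 63.3 CPM in *Smyd1-KO* hearts against 46.5, 55.0 and 56.2 CPM in WT hearts, so the genotypes overlapped. Its log2 fold change was 0.15 (SE 0.13, 95% interval -0.17 to 0.46, adjusted *P*=0.538 in edgeR). *Car14*, a transmembrane enzyme found in heart muscle, lies on chromosome 3 (ENSMUSG00000038526, 95897768 to 95904691, minus strand). It had 81.6, 84.4 and 63.4 CPM in *Smyd1-KO* hearts against 59.5, 63.1 and 69.0 CPM in WT hearts. *Smyd1-KO* heart 3 lay inside the WT range, and the log2 fold change was 0.26 (SE 0.12, 95% interval -0.03 to 0.55, adjusted *P*=0.239 in edgeR). Exons of *Car14* share 445 bases (17.5%) with *Aph1a* on the other strand, whose log2 fold change was 0.16 (adjusted *P*=0.337 in edgeR), and the counts of the pair may be mixed.

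**Figure D1:**
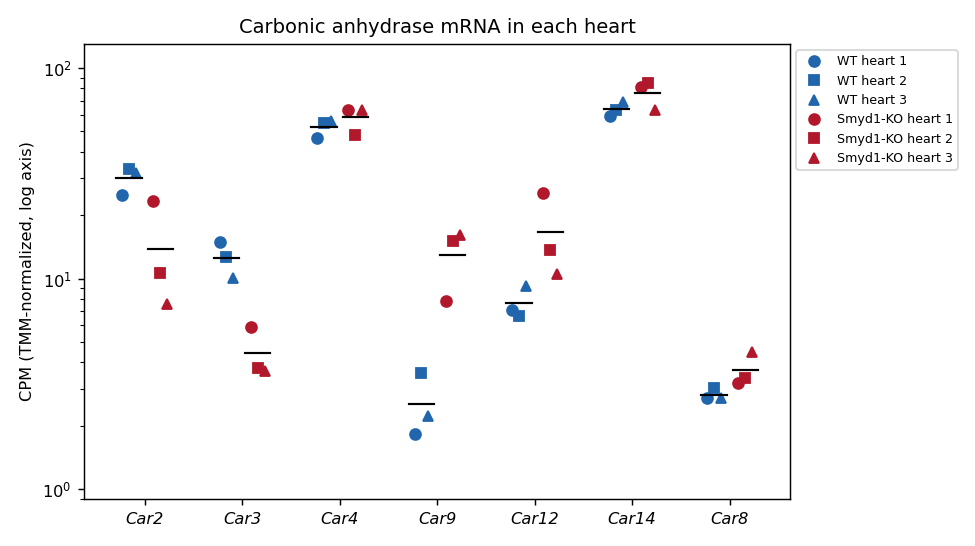
CPM of each member in each heart on a log axis, with blue symbols for WT, red symbols for *Smyd1-KO*, a symbol shape for each heart number and a black bar at the mean of 3 hearts. *Car9* sits at 7.82 to 16.2 CPM in *Smyd1-KO* against 1.83 to 3.56 CPM in WT hearts, *Car3* at 3.66 to 5.88 against 10.1 to 14.9 CPM, and the symbols of *Car4* and *Car14* overlap.

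Both cytosolic members were lower in every *Smyd1-KO* heart. *Car3* (ENSMUSG00000027559, chromosome 3, 14863512 to 14872523, plus strand) had 5.88, 3.76 and 3.66 CPM in *Smyd1-KO* hearts 1 to 3 and 14.9, 12.7 and 10.1 CPM in WT hearts 1 to 3. The highest *Smyd1-KO* heart was well below the lowest WT heart. The means were 4.43 ± 1.26 and 12.6 ± 2.43 CPM (SD, n=3 each), and the log2 fold change was -1.50 (SE 0.24, 95% interval -2.08 to -0.93, adjusted *P*=0.0202 in edgeR). With the replicate block it was -1.52 (adjusted *P*=0.0662), and of the 6 fits that leave out 1 heart the call held in that without *Smyd1-KO* heart 1 and in no other (adjusted *P* from 0.00713 to 0.104).

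*Car2*, the fast and widespread cytosolic enzyme, lies 13749 bases downstream of *Car3* (ENSMUSG00000027562, 14886273 to 14900770, plus strand). It had 23.4, 10.6 and 7.55 CPM in *Smyd1-KO* hearts 1 to 3 and 25.0, 33.0 and 31.9 CPM in WT hearts 1 to 3. *Smyd1-KO* heart 1 was almost as high as WT heart 1, and the other *Smyd1-KO* hearts were far below. The log2 fold change was -1.11 (SE 0.39, 95% interval -2.02 to -0.21), which edgeR did not call (adjusted *P*=0.132) and DESeq2 did (adjusted *P*=0.0146). Without *Smyd1-KO* heart 1 it was -1.72 and was called in edgeR (adjusted *P*=0.00688).

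Erythroid markers were also lower in *Smyd1-KO* hearts. The 18 markers summed to 33.4, 292 and 173 CPM in *Smyd1-KO* hearts 1 to 3 and 762, 1013 and 973 CPM in WT hearts 1 to 3 (exact permutation *P*=0.1). All 18 had a negative log2 fold change (median -2.71), 17 were lower in every *Smyd1-KO* heart (15.5% of all tested genes) and 9 were called downregulated (1.42% of all tested genes), and none was at 0 in every heart. Within *Smyd1-KO* hearts the order differed, since heart 1 had the lowest erythroid sum and the highest *Car2* and *Car3*. *Car1*, another carbonic anhydrase of red cells, had 0 counts in each *Smyd1-KO* heart and 1, 3 and 0 in WT hearts. The part of red cells in the lower *Car2* and *Car3* was not tested.

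**Figure D2:**
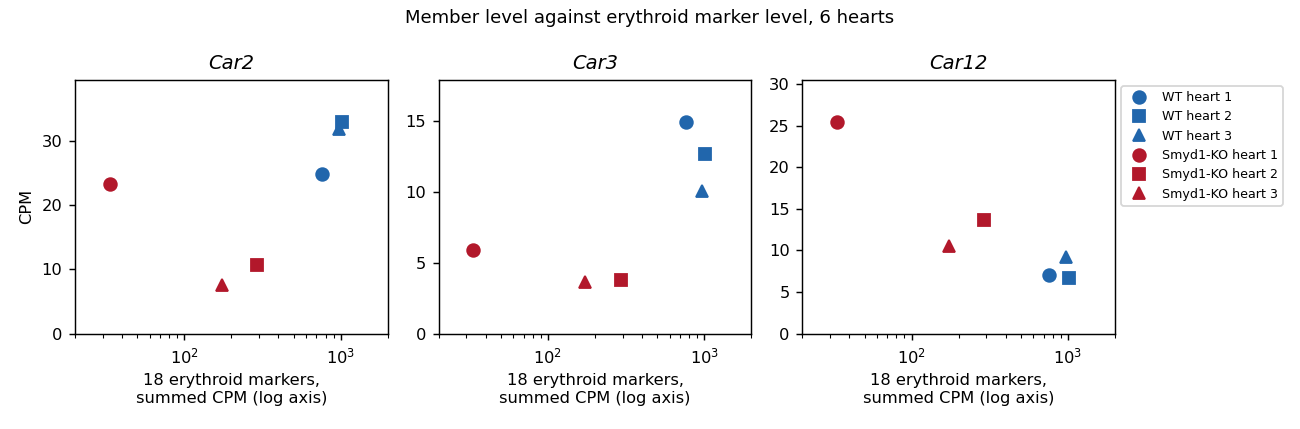
CPM of *Car2*, *Car3* and *Car12* in each of the 6 hearts (vertical axis) against the summed CPM of 18 erythroid markers (horizontal log axis), with blue for WT and red for *Smyd1-KO*. WT hearts lie at erythroid sums of 762 to 1013 CPM, and *Smyd1-KO* heart 1, at 33.4 CPM, has the highest *Car2*, *Car3* and *Car12* of its genotype.

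*Car8*, a carbonic anhydrase-related protein that lacks catalytic activity, was the least abundant member per length (ENSMUSG00000041261, chromosome 4, 8143362 to 8239041, minus strand). It had 3.19, 3.38 and 4.47 CPM in *Smyd1-KO* hearts against 2.70, 3.02 and 2.70 CPM in WT hearts. Every *Smyd1-KO* heart was above every WT heart, by a small margin, and the log2 fold change of 0.39 (SE 0.20, 95% interval -0.07 to 0.85) was not called in edgeR (adjusted *P*=0.267). In all, 3 members were higher and 2 lower in every *Smyd1-KO* heart, where 15.9% of tested genes were higher and 15.5% lower in this way.

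Levels were compared between members as RPKM, CPM divided by the exonic length in kilobases. In WT hearts *Car4* (26.8 ± 2.69 RPKM) and *Car14* (25.1 ± 1.90) were highest and did not differ beyond their spread, followed by *Car2* (12.4 ± 1.80) and *Car3* (4.39 ± 0.847). *Car9* (1.10 ± 0.394), *Car12* (1.01 ± 0.178) and *Car8* (0.729 ± 0.0482) came last, the first pair within their spread. With the longest annotated transcript as the length, *Car12* (2.06 RPKM) came above *Car9* (1.25 RPKM) in WT hearts. In *Smyd1-KO* hearts *Car14* (30.1 ± 4.48) and *Car4* (29.6 ± 4.52) still led and *Car3* had 1.55 ± 0.438 RPKM. The means of *Car2* (5.72 ± 3.46) and *Car9* (5.65 ± 1.97) were now close, but the hearts differed. *Car2* was above *Car9* in *Smyd1-KO* heart 1 (9.65 against 3.39 RPKM). It was below *Car9* in hearts 2 (4.39 against 6.53 RPKM) and 3 (3.12 against 7.03 RPKM). *Car12* had 2.18 ± 1.03 RPKM and *Car8* 0.955 ± 0.179 RPKM.

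Summed over the 7 members the level was 75.7 ± 6.84 RPKM in *Smyd1-KO* and 71.5 ± 5.63 RPKM in WT hearts, and the genotypes overlapped. The make-up differed. The 4 membrane-bound members summed to 71.1, 65.9 and 65.6 RPKM in *Smyd1-KO* hearts 1 to 3 and 48.8, 55.2 and 57.9 RPKM in WT hearts 1 to 3. The cytosolic pair summed to 11.7, 5.70 and 4.40 RPKM against 15.5, 18.05 and 16.7 RPKM. Neither sum overlapped between genotypes. *Car4* and *Car14*, the largest parts of the membrane-bound sum, each overlapped between genotypes on their own and were not called. *Car9* made up 4.06%, 9.003% and 9.88% of the RPKM of the 7 members in *Smyd1-KO* hearts and 1.22%, 2.09% and 1.28% in WT hearts. These sums add genes whose changes are given above and are a description, with no test.

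**Figure D3:**
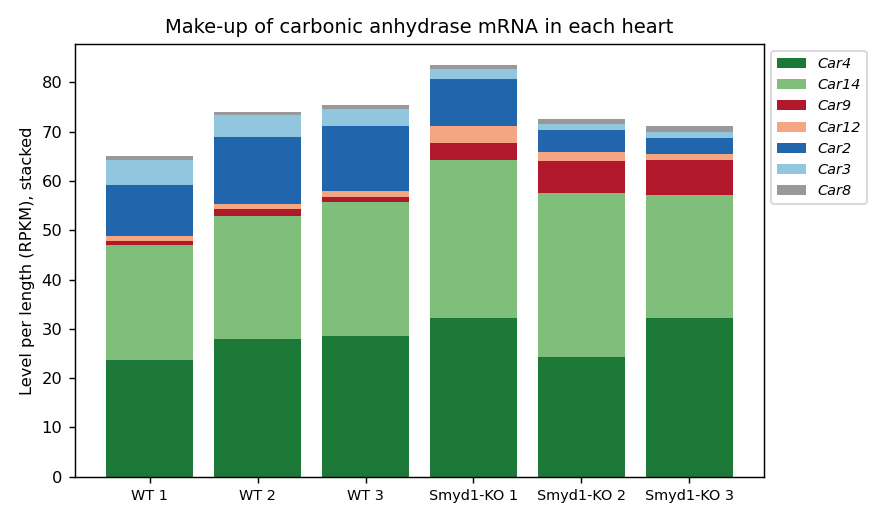
Level per length (RPKM) of the 7 members stacked in each heart, with 1 colour for each gene. The total runs from 65.0 to 83.6 RPKM over the 6 hearts, the *Car9* band is wider in the 3 *Smyd1-KO* hearts, and the *Car2* band is narrower in *Smyd1-KO* hearts 2 and 3.

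The other 9 carbonic anhydrase genes were mostly low, and 6 of them were tested. *Car11*, a carbonic anhydrase-related protein without activity, had 7.75, 6.12 and 6.24 CPM in *Smyd1-KO* hearts against 2.08, 2.05 and 1.52 CPM in WT hearts. No heart of 1 genotype came near the other. It was upregulated, with a log2 fold change of 1.83 (SE 0.21, 95% interval 1.35 to 2.32, adjusted *P*=0.00664 in edgeR), and kept the call in 5 of the 6 fits that leave out 1 heart, the exception being WT heart 2 (adjusted *P*=0.0515). With the replicate block its adjusted *P* was 0.0614. *Car7*, a cytosolic enzyme, was lower in every *Smyd1-KO* heart (2.22 to 2.49 against 3.39 to 6.57 CPM), with a log2 fold change of -1.003 that DESeq2 called (adjusted *P*=0.00542) and edgeR did not (adjusted *P*=0.0757). *Car13*, also cytosolic, overlapped between genotypes (log2 fold change 0.16). *Car15*, a membrane-bound enzyme, was lower in every *Smyd1-KO* heart (-0.86, 0.403 to 0.507 against 0.688 to 1.09 CPM). With *Car5b* (0.69) and *Car10* (0.83), these genes had adjusted *P* values of 0.119 to 0.756 in edgeR. *Car1*, *Car5a* and *Car6* had 0 to 7 counts per heart and were not tested. Over all 16 genes, 13 were tested, of which 2 were upregulated, 1 was downregulated and 10 passed in neither direction, beside the 2.86% and 1.42% of all tested genes.

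**Figure D4:**
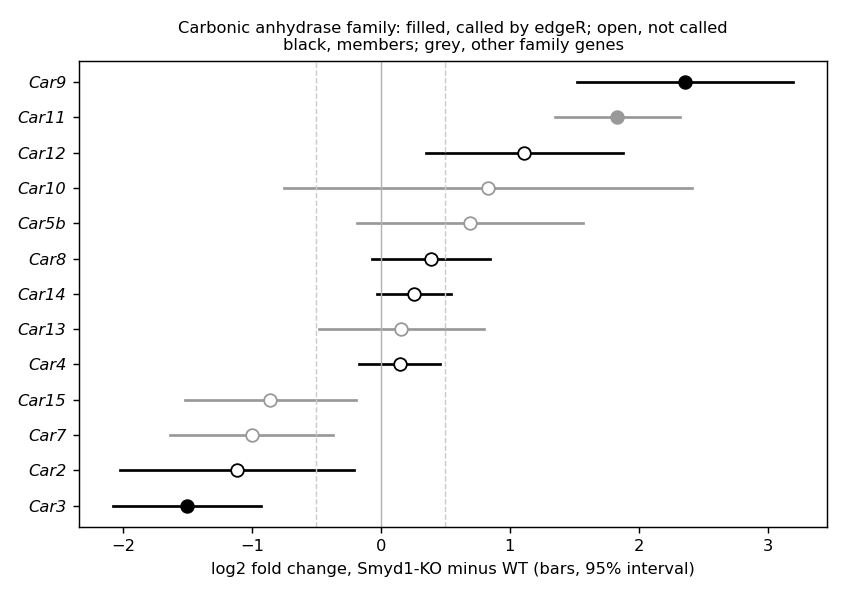
Log2 fold change (*Smyd1-KO* minus WT) of the 13 tested carbonic anhydrase genes with 95% intervals. Filled circles mark the genes called in edgeR, *Car9* at 2.36, *Car11* at 1.83 and *Car3* at -1.50, dashed lines mark an absolute log2 fold change of 0.5, and members are black.

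Acid also leaves cells through transporters, and 59 genes for transporters, pumps and proton sensors were followed as lists. Of these, 47 were tested, 3 were upregulated, 2 were downregulated and 42 passed in neither direction, where 2.86% of all tested genes were upregulated and 1.42% downregulated. Their median log2 fold change was 0.03, with 24 values above 0 and 23 below. None of the 8 tested sodium-proton exchangers and CHP partners was called in edgeR or DESeq2. In edgeR 1 of them had an unadjusted *P* under 0.05, against 25.1% of all tested genes. Of these 8, 1 had a log2 fold change above 0 and 7 below, with a median of -0.19. Lower in every *Smyd1-KO* heart were 2 and higher 0, where 15.5% and 15.9% of all tested genes were.

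Of 6 genes for proton-coupled lactate carriers and their chaperones, 2 were upregulated, against 2.86% of all tested genes. *Slc16a3*, the lactate and proton exporter MCT4, had 795, 996 and 1018 CPM in *Smyd1-KO* hearts against 564, 538 and 452 CPM in WT hearts. It rose 1.81-fold (log2 fold change 0.85, SE 0.14, adjusted *P*=0.0192 in edgeR). *Bsg*, the chaperone that brings these carriers to the membrane, had 854, 1143 and 1298 CPM against 636, 535 and 449 CPM, with a log2 fold change of 1.02 (SE 0.19, adjusted *P*=0.0292 in edgeR). For both genes every *Smyd1-KO* heart was above every WT heart, and both calls held in the fits without *Smyd1-KO* heart 1 and without WT heart 1 and in none of the other 4. *Bsg* was also the most abundant gene of its list per length, at 605 RPKM in *Smyd1-KO* and 298 RPKM in WT hearts.

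*Slc4a5* fell among the bicarbonate transporters. The gene, a sodium-bicarbonate cotransporter, had 3.11, 3.16 and 2.31 CPM in *Smyd1-KO* hearts against 8.48, 8.21 and 6.68 CPM in WT hearts. It fell 2.72-fold (log2 fold change -1.44, SE 0.20, adjusted *P*=0.0123 in edgeR), and the other 3 tested cotransporters passed in neither direction. No chloride-bicarbonate exchanger of 4 tested was called in edgeR, where 2 had an unadjusted *P* under 0.05, and DESeq2 called 2, *Slc4a1* and *Slc26a6*, both named after their values were seen. *Slc4a1*, the band 3 anion exchanger of red cells, had 0.802, 8.81 and 4.85 CPM against 26.4, 53.6 and 50.9 CPM (log2 fold change -3.17, SE 0.72, adjusted *P*=0.0512 in edgeR), in the same hearts as the lower erythroid sum above. It was also called in limma voom (adjusted *P*=0.0381), in edgeR without the filter (0.0125), with at least 10 counts in every heart (0.0464) and without *Smyd1-KO* heart 1 (0.0131), so its call turned on the fit. Of 21 tested subunits of the vacuolar proton pump, *Atp6ap2* rose (log2 fold change 0.62, SE 0.09, adjusted *P*=0.0181) and *Atp6v0a2* fell (-0.57, SE 0.10, adjusted *P*=0.0252), both in edgeR. Of these 21, 14 had a log2 fold change above 0 and 7 below. Every *Smyd1-KO* heart was above every WT heart for 9 and below for 1, where 15.9% and 15.5% of all tested genes were. An unadjusted *P* under 0.05 in edgeR was found for 8 (7 higher), against 25.1% of all tested genes. Of the 6 fits that leave out 1 heart, *Slc4a5* was called in 5 (not without WT heart 2), *Atp6ap2* in 3 (without *Smyd1-KO* heart 1, *Smyd1-KO* heart 3 or WT heart 1) and *Atp6v0a2* in 1 (without *Smyd1-KO* heart 3). No transport gene was called with the replicate block, where 12 of the 47 had an unadjusted *P* under 0.05, as did 18.7% of all tested genes. The most abundant genes per length in the other lists were *Atp6v1g1*, *Slc4a2*, *Slc4a7*, *Chp1* and *Asic1*, and none of them was called.

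The calls of the members depended on the fit. In DESeq2, 2 members were upregulated (*Car9*, *Car12*) and 2 downregulated (*Car3*, *Car2*). Of 33106 genes with a *P* value there, 5.28% were called, 3.40% up and 1.88% down. These 33106 include genes of low count that got no adjusted *P*, such as *Car1*, and could not be called. Over genes with an adjusted *P* alone the shares would be higher. With the replicate number as a block, which called 0.305% of tested genes (0.289% up and 0.0155% down), none of the 7 members was called, and 4 of the 7 had an unadjusted *P* under 0.05 there and in the fit without the block, against 25.1% of all tested genes in the latter (13.1% higher and 11.9% lower) and 18.7% in the former.

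**Figure D5:**
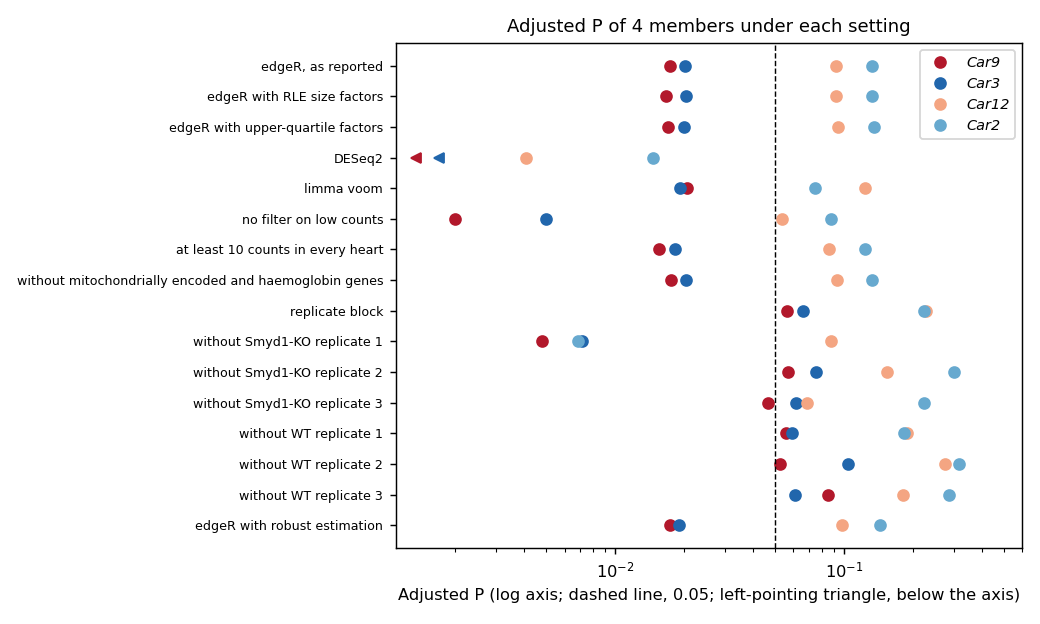
Adjusted *P* (horizontal log axis) of *Car9*, *Car3*, *Car12* and *Car2* in each fit, with a dashed line at 0.05. The 2 left-pointing triangles in the DESeq2 row stand for values below the axis, 2.36e-11 for *Car9* and 5.38e-08 for *Car3*, and their place along the axis carries no value. *Car12* and *Car2* lie left of the line in DESeq2, and *Car2* also without *Smyd1-KO* heart 1.

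The genes whose log2 CPM followed each member most closely over the 6 hearts, among 13043 candidates, are given as a description of shared pattern. They were *Matk*, *Narf* and *Jmy* for *Car9* (Pearson r of 0.996 to 0.997) and *Cdca8*, *Gsk3a* and *Psmd3* for *Car3* (0.997 to 0.9998). For *Car2* they were *Ints7*, *Eftud2* and *Gtpbp3*, for *Car12* *Spire1*, *Gm13456* and *Rps2-ps10*, and for *Car8* *Tmem191c*, *Slc29a3* and *Phf19*. *Ppp4r4*, *Tle3* and *Icosl* were closest to *Car4* and *Rnf114*, *Lipe* and *Dgkd* to *Car14*. Each r rests on 6 hearts of 2 genotypes. Among the members themselves r was 0.87 for *Car2* with *Car3*, -0.96 for *Car3* with *Car9* and 0.83 for *Car12* with *Car14*, over hearts that share the difference between genotypes.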

How the data were processed

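RNA of 3 *Smyd1-KO* and 3 WT E9.5 hearts was sequenced after poly A selection, and the authors aligned the paired-end reads to mm10 with STAR. The counting tool, annotation release and strand setting are not given in the sources used here. The deposited raw counts per gene are whole numbers without normalization, and all results come from them. A second deposited table holds a normalized signal, the counts divided by the authors' DESeq2 size factor of each heart, and served only to check that 1 factor per heart relates the tables. Groups and replicate numbers came from the labels, and each sample was taken as 1 heart from a separate embryo.

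Counts were tested in R 4.3.3 with edgeR 4.0.16 (filterByExpr, TMM, quasi-likelihood test, Benjamini-Hochberg adjustment over 19372 genes). CPM used TMM-scaled library sizes, and correlations used log2 CPM with a prior count of 2. SEs were derived from the quasi-likelihood F statistic. Exonic lengths and positions came from GENCODE on GRCm38. The alternatives were DESeq2 1.42.0, limma voom 3.58.1, RLE and upper-quartile factors, no filter, at least 10 counts in every heart, no mitochondrially encoded or haemoglobin genes, no fold limit, the replicate block, each heart left out, and, added after the data were seen, robust estimation and marker sums without each heart. The code was tested on simulated data. Figures were drawn with matplotlib 3.10.9.

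The members and gene lists were chosen with earlier results of these data known. Named were all carbonic anhydrase genes, the called genes and the most abundant gene of each transport list, and the 3 genes most correlated with each member. Another gene that the rule names is not reported here. Total counts of 48627825 to 64217529 per heart and the spread between 3 hearts set the precision, with a common biological coefficient of variation of 22.5%. Same-numbered hearts did not deviate together (correlations -0.22, -0.05 and -0.18), so the numbers were not taken as pairs. With 3 hearts per genotype these correlations cannot exclude a pairing, and the labels state none. Proteins and chromatin were not analysed here.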

Additional observations from a re-analysis of the deposited data

How the results depend on the processing

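DESeq2 gave 2 members upregulated and 2 downregulated, 2 other carbonic anhydrases called, 4 acid transport genes downregulated and 1749 genes called in all. With the replicate block the counts were 0 members upregulated, 0 downregulated, 0 other carbonic anhydrases, 0 acid transport genes upregulated, 0 downregulated and 59 genes in all. Whether equal numbers pair the hearts is not stated in the labels. Leaving out each heart in turn gave 0 to 1 members upregulated, 0 to 2 downregulated, 0 to 1 other carbonic anhydrases, 0 to 3 acid transport genes upregulated, 0 to 2 downregulated and 97 to 1256 genes in all, the fewest without WT heart 2 and the most without *Smyd1-KO* heart 1. limma voom, no filter and at least 10 counts in every heart each gave 3 acid transport genes downregulated. The cause was not tested. *Car13* (0.16) ran from -0.20 without *Smyd1-KO* heart 1 to 0.33 without *Smyd1-KO* heart 2. With 1 heart left out, the log2 ratio of the summed cardiomyocyte markers (-0.11) ran from -0.30 to 0.17, turning to 0.17 without *Smyd1-KO* heart 1 and 0.04 without WT heart 1. That of the macrophage markers (0.05) ran from -0.15 to 0.33, turning to -0.08 without *Smyd1-KO* heart 3 and -0.15 without WT heart 2. That of the foregut and liver bud markers (0.20) ran from -0.049 to 0.35, turning to -0.049 without WT heart 1. Of 285 values of single genes under the alternatives, 245 kept direction and side of the threshold, 35 lost a call, 4 gained one and 1 reversed. With 3 hearts per genotype, differences near the spread between hearts could not be called at this depth.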
